A study of Caenorhabditis elegans with 3 samples.

Results

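The nuclear hormone receptor genes of Caenorhabditis elegans were followed in dissected germlines after RNA interference (RNAi). They were taken as every gene of the deposited table whose symbol is nhr and a number, with nhr-11 left out. The table held 282 such genes. Of these, 93 had at least 10 normalised reads (read numbers scaled by the authors with one size factor per library) in at least 4 of the 12 libraries and were tested, among 11345 genes tested in all. The other 189 lay under that minimum: 37 had no read in any library and 152 had some. By its fourth-highest value nhr-85, at 10.3 normalised reads, was just inside the minimum, and nhr-236, at 9.997, was just outside it.

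Poly(A) RNA was sequenced from germlines of young adult hermaphrodites of the wild-type strain N2, with 4 libraries (named orig, 1, 2 and 3) in each of 3 groups. Animals were fed either a csr-1 clone of the Ahringer RNAi library, bacteria for P granule RNAi, or HT115 bacteria with the plasmid L4440 alone (empty vector, EV). Feeding began at the first larval stage at 24 °C, the germlines were those of the F1 progeny, and each library pooled 400 to 500 of them. The series design calls the libraries biological replicates; the P granule RNAi was a combined one, and its targets are known from the study and not from the labels (the scaffold genes pgl-1 and pgl-3 with the helicase genes glh-1 and glh-4). CSR-1 is a germline Argonaute, a protein that carries small RNAs matching germline transcripts. P granules are condensates of RNA and protein at the nuclear pores of germ cells.

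Nuclear hormone receptors are transcription factors that join a zinc-finger domain, which binds DNA, to a domain that in many of them binds a small lipid-like ligand. Nematodes carry a greatly enlarged family, most of it related to the vertebrate receptor HNF4, and many of the genes stand side by side on chromosome V. A few are counterparts of receptors found across animals. In worms the studied members act in fat metabolism, molting, diet response and the shaping of the spermatheca and other somatic gonad, and most members have no described role.

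The libraries held 18.4 to 31.9 M (megareads) in genes. The csr-1 transcript had 3836 ± 1565 normalised reads under csr-1 RNAi and 23553 ± 1583 with EV (SD, n = 4 each). Under P granule RNAi all 4 targets were lower on average than with EV, from 17104 against 24978 normalised reads for glh-1 to 1515 against 7145 for glh-4. The csr-1 transcript had 14389 to 16887 normalised reads in the P granule RNAi libraries, under all EV libraries (21838 to 25470). glh-1 and glh-4 averaged 63969 and 16674 under csr-1 RNAi, against 24978 and 7145 with EV, with every csr-1 RNAi library above every EV library. The germline marker list (14 genes, among them gld-1 and htp-3) had a mean log2 level per library of 12.06 to 12.56 under csr-1 RNAi, 12.09 to 12.39 under P granule RNAi and 12.45 to 12.68 with EV, so the labelled tissue was present in every library. Markers of body cells were present as well. The intestine list spanned 7.29 to 8.49, 5.67 to 9.02 and 7.13 to 8.68 in the same order of groups, and the list for the gonad sheath and spermatheca 6.54 to 7.41, 6.40 to 7.70 and 6.74 to 7.58. Whether a receptor read came from a germ cell or a body cell, and whether fewer cells of a type or less RNA per cell lay behind a lower value, cannot be told apart in these bulk samples.

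The receptor genes took up a small part of each library. Between 181 and 212 of the 282 genes had a read in a given csr-1 RNAi library, 180 to 204 in a P granule RNAi library and 175 to 197 in an EV library. Their summed values were 0.0653% to 0.0964% of those of all genes under csr-1 RNAi, 0.0634% to 0.0816% under P granule RNAi and 0.0708% to 0.085% with EV. The 3 ranges overlapped. Most members were low: with EV, 63 of the 93 averaged under 100 normalised reads and 3 averaged over 1000. The median member stood at 33 to 35.6 normalised reads in the csr-1 RNAi libraries, at 43.4 to 53.9 under P granule RNAi and at 45 to 51.4 in the EV libraries, so every csr-1 RNAi library lay below every library of the other groups.

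On the scale of normalised reads per kilobase of coding length, which allows genes to be compared, nhr-49 stood highest with EV at 1982, followed by nhr-66 at 1587, nhr-23 at 1184, nhr-86 at 791, nhr-274 at 614 and nhr-46 at 409. nhr-49 is a regulator of fat metabolism, and nhr-66 encodes a partner protein of NHR-49. nhr-23, the worm counterpart of the ROR receptors, acts in molting and in the making of sperm, and nhr-86 has a described role in immune response. In the EV libraries the ranges of neighbours in this order did not overlap on this scale, and those of nhr-86 and nhr-274 came closest.

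nhr-49 had 3537, 2766, 2950 and 2488 normalised reads in the csr-1 RNAi libraries orig, 1, 2 and 3, 2991, 2873, 2574 and 2383 in the P granule RNAi libraries, and 2870, 2887, 3065 and 3091 in the EV libraries. All 3 groups overlapped. Its log2 fold change was −0.03 ± 0.12 (SE) under csr-1 RNAi, with a 95% interval of −0.30 to 0.24 (limma adjusted p = 0.894), and −0.14 ± 0.12 under P granule RNAi (adjusted p = 0.542).

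nhr-66 had 5304, 3928, 4332 and 3614 normalised reads under csr-1 RNAi, 2446, 2635, 2271 and 2044 under P granule RNAi, and 3258, 3288, 3771 and 3643 with EV. The P granule RNAi libraries lay below all others, and the csr-1 RNAi and EV libraries overlapped. Neither RNAi group passed the test against EV (adjusted p = 0.179 under csr-1 RNAi and 0.247 under P granule RNAi). Exons of nhr-66 overlap serp-1.2 and anr-44 on the other strand, and the library kit does not mark strand, so reads within the overlaps cannot be told apart. Reads counted as ambiguous between genes had an entry of their own (0.78% to 0.92% of the reads per library) and were left out. How many of them fell on receptor genes is not given.

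nhr-23 had 3459, 1853, 2082 and 1504 normalised reads under csr-1 RNAi, 2381, 1771, 1531 and 1339 under P granule RNAi, and 2177, 2288, 2230 and 1658 with EV. In both RNAi groups the library orig was highest and library 3 lowest, and the groups overlapped. The log2 fold change under csr-1 RNAi was 0.03 ± 0.25 (adjusted p = 0.953). Without the library csr-1 RNAi orig it was −0.21.

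nhr-86 had 1994, 1613, 1250 and 1340 normalised reads under csr-1 RNAi, 837, 1902, 805 and 792 under P granule RNAi, and 928, 1000, 1061 and 874 with EV. All csr-1 RNAi libraries stood above all EV libraries, and 1 P granule RNAi library, library 1, stood apart from the other 3. The log2 fold change of 0.66 ± 0.26 under csr-1 RNAi did not pass the test (adjusted p = 0.112). It passed without P granule RNAi library 1 (adjusted p = 0.0107), which enters through the shared estimate of spread.

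nhr-274 had 1023, 818, 777 and 746 normalised reads under csr-1 RNAi, 564, 864, 478 and 486 under P granule RNAi, and 655, 711, 881 and 827 with EV, with overlapping groups (adjusted p = 0.707 for csr-1 RNAi against EV). nhr-46 was the only one of the 6 to pass the test against EV. It had 486, 472, 369 and 420 normalised reads under csr-1 RNAi, 742, 676, 487 and 433 under P granule RNAi, and 752, 636, 776 and 664 with EV, so every csr-1 RNAi library lay below every EV library. Its log2 fold change was −0.70 ± 0.18 (adjusted p = 0.0241). The call was lost without EV library orig, EV library 2 or csr-1 RNAi library 2 (adjusted p = 0.0638, 0.0769 and 0.0747). nhr-66, nhr-49 and nhr-23 together supplied 49.4% to 56.1% of the members' summed normalised reads under csr-1 RNAi, 40.1% to 44.2% under P granule RNAi and 43.8% to 47.9% with EV. The members without them summed to 7336 to 9615 normalised reads under csr-1 RNAi, 8273 to 10444 under P granule RNAi and 9200 to 10767 with EV.

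**Figure D1:**
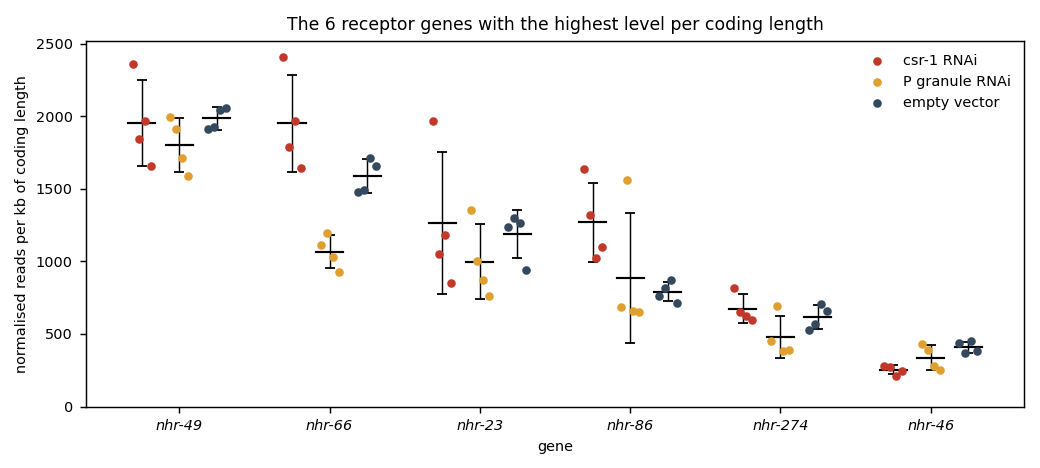
Level of the 6 receptor genes with the highest normalised reads per kilobase of coding length in EV libraries; points are libraries (red csr-1 RNAi, yellow P granule RNAi, dark blue EV), horizontal lines are means and bars are SD (n = 4 each). nhr-66 is lowest under P granule RNAi, 1 library of nhr-86 under P granule RNAi stands apart, and nhr-46 is lower in every csr-1 RNAi library than in every EV library.

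The first comparison asked how the receptor transcripts stood once csr-1 was depleted. Under csr-1 RNAi 24 of the 93 members fell and 3 rose relative to EV at a limma adjusted p under 0.05. Over all 11345 tested genes 14.8% were called, 7.8% lower and 6.98% higher; among the members 29% were called, 25.8% lower and 3.23% higher. The median log2 fold change of the members was −0.43, beside 0.02 over all tested genes, and 68 members had a negative value. Without regard to the test, 31 members had all csr-1 RNAi libraries below all EV libraries (33.3% of members, beside 11.7% of all genes) and 5 had them all above (5.38%, beside 9.97%). The members had been proposed with earlier results of these data known, so these counts describe them and do not test the family.

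The number called was lower when certain single EV libraries were left out: it was 17 without EV library orig and 16 without EV library 2. The shares called over all tested genes in these smaller fits are not given here, so the loss may not be particular to the receptors. Of the 27 calls, 15 held under every one of the 23 alternative settings that tested the gene, those of nhr-4, nhr-17, nhr-21, nhr-22, nhr-25, nhr-34, nhr-40, nhr-97, nhr-112, nhr-138, nhr-154, nhr-158, nhr-161, nhr-181 and nhr-190. No called member reversed its direction in any of them. Among the 15, nhr-112 and nhr-158 reached the minimum of 10 normalised reads only in csr-1 RNAi libraries, and nhr-25 only in the other groups. The minimum thus took these genes in through the groups where they were high.

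**Figure D2:**
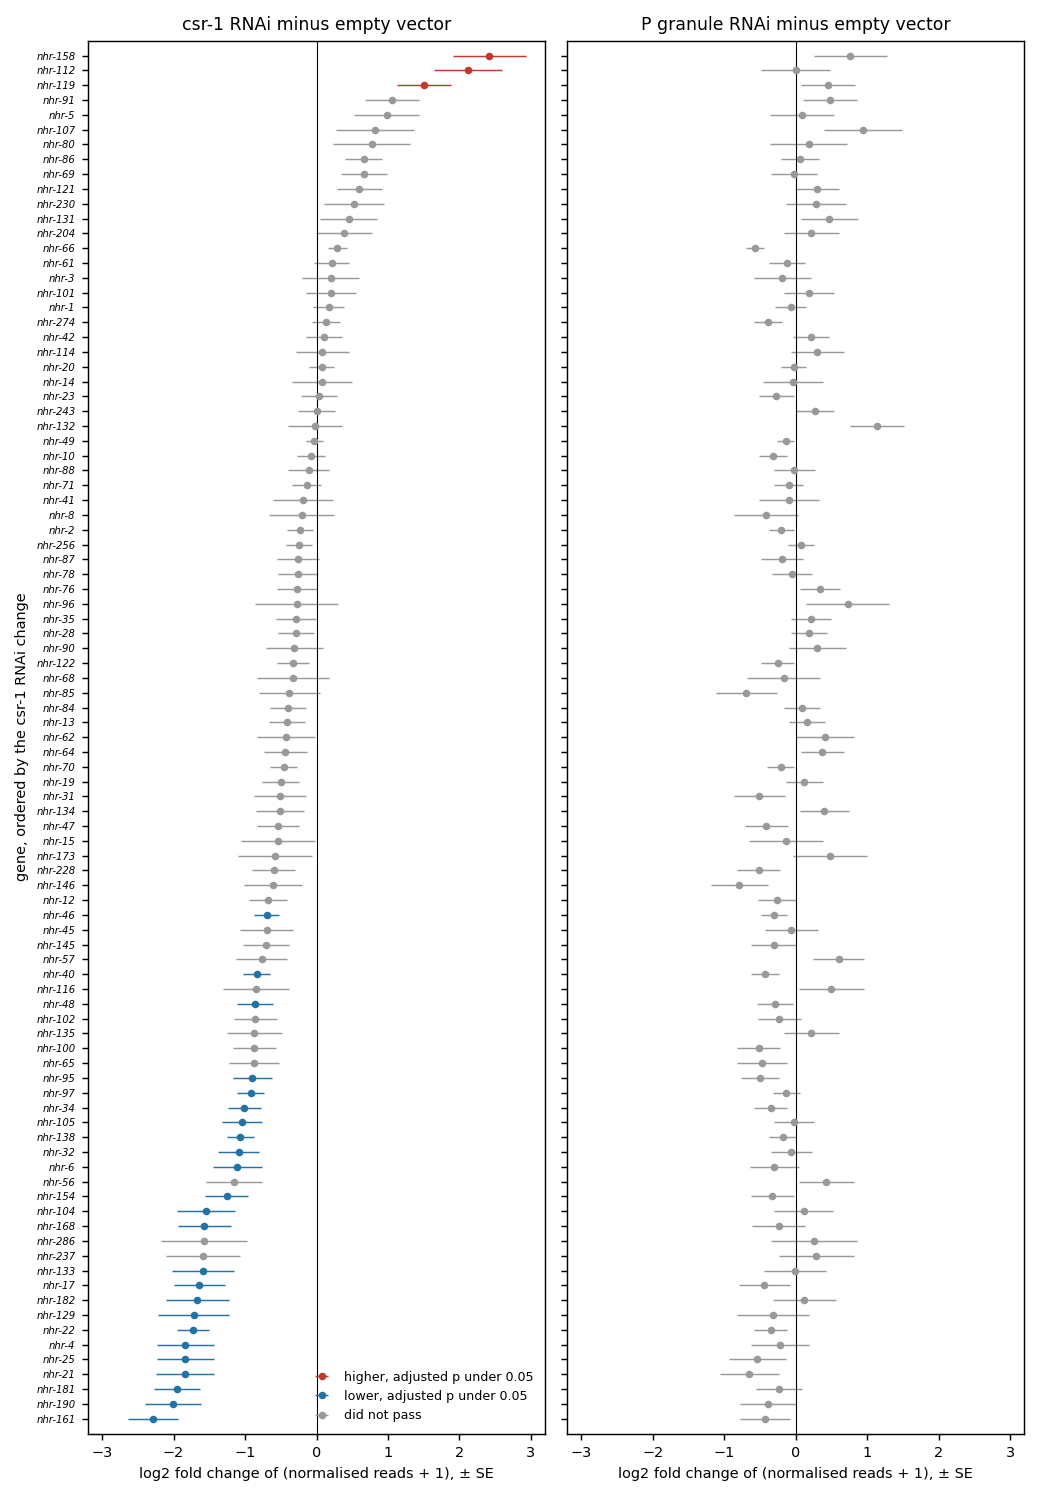
Log2 fold change ± SE of each of the 93 tested receptor genes in csr-1 RNAi against EV (left) and P granule RNAi against EV (right), in the order of the csr-1 RNAi change, with the 24 called lower in blue, the 3 called higher in red and the rest in grey. The left values reach from −2.29 to 2.42, the right values from −0.79 to 1.14, and no gene passed on the right; both panels share the EV libraries.

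The largest falls were on chromosomes V, II, IV and X, and most of these genes have no described role. nhr-161 (C33G8.7, chromosome V) had 18.2, 11.2, 14.1 and 22.7 normalised reads under csr-1 RNAi, 78.9, 40.6, 49.6 and 85 under P granule RNAi, and 102, 55.5, 73 and 110 with EV. Its csr-1 RNAi libraries were below all others. The log2 fold change was −2.29 ± 0.35 (adjusted p = 0.00148), or 0.205 of the EV level. nhr-190 (F48G7.11, chromosome V) had 11.6, 8.72, 4.71 and 12.9 normalised reads under csr-1 RNAi, 50.2, 25.4, 24.8 and 24.6 under P granule RNAi, and 47.9, 49.2, 36 and 27.7 with EV. Again no csr-1 RNAi library reached the others, and the log2 fold change was −2.01 ± 0.39 (adjusted p = 0.00515). nhr-181 (F38H12.3, chromosome V) had 21.1, 38.6, 39.5 and 59.3 normalised reads under csr-1 RNAi, 199, 97.7, 118 and 105 under P granule RNAi, and 158, 134, 167 and 130 with EV. The gap to the other groups was complete, with a log2 fold change of −1.95 ± 0.32 (adjusted p = 0.00231).

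nhr-4 (F32B6.1, chromosome IV) had 17.4, 41.1, 43.3 and 79.8 normalised reads under csr-1 RNAi, 116.6, 173.8, 104.3 and 114.5 under P granule RNAi, and 110.5, 119.3, 153.0 and 220.5 with EV. The csr-1 RNAi libraries lay below all others, and the log2 fold change was −1.84 ± 0.40 (adjusted p = 0.0095). Exons of nhr-4 overlap prp-18, a splicing factor gene on the other strand, so reads within the overlap cannot be separated. nhr-21 (F21D12.1, chromosome II) had 13.1, 16.2, 38.6 and 53.9 normalised reads under csr-1 RNAi, 62.7, 59.6, 52.7 and 67.7 under P granule RNAi, and 90.2, 70.1, 109 and 120 with EV. Here the P granule RNAi libraries also lay below all EV libraries. The fall was −1.84 ± 0.41 on the log2 scale under csr-1 RNAi (adjusted p = 0.0106), and −0.65 ± 0.41 under P granule RNAi did not pass (adjusted p = 0.425). nhr-22 (K06A1.4, chromosome II) had 60.3, 48.6, 64 and 85.2 normalised reads under csr-1 RNAi, 226, 161, 130 and 161 under P granule RNAi, and 200, 188, 207 and 257 with EV. Its 4 csr-1 RNAi libraries lay close together, and the log2 fold change of −1.73 ± 0.23 had the lowest adjusted p of all members (0.000739).

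nhr-25 (F11C1.6, chromosome X) is the best described of the genes with the largest falls: it is the worm counterpart of the FTZ-F1 and SF-1 receptors and acts in molting and in the development of the somatic gonad. It had 3.64, 4.98, 9.41 and 7.55 normalised reads under csr-1 RNAi, 23.6, 8.88, 18.6 and 18.5 under P granule RNAi, and 23.6, 32.4, 23 and 19.8 with EV. All csr-1 RNAi libraries were under 10 normalised reads and all EV libraries above, with a log2 fold change of −1.84 ± 0.40 (adjusted p = 0.0095). nhr-25 thus entered the tested set only through the groups where it was high, as did nhr-129 and nhr-168 among the genes that fell. nhr-129 (C50B6.14, chromosome V) had 3.64, 2.49, 0.941 and 3.24 normalised reads under csr-1 RNAi, 11.1, 6.34, 14.5 and 3.69 under P granule RNAi, and 8.12, 12.6, 7 and 14.8 with EV. The csr-1 RNAi values are a few reads each, and the log2 fold change of −1.72 ± 0.50 (adjusted p = 0.0384) lost its call without any single EV library and without csr-1 RNAi library 1, 2 or 3 (adjusted p from 0.0532 to 0.115).

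The other 16 falls ran from −1.67 to −0.70 on the log2 scale, with adjusted p from 0.00399 to 0.0467. They comprised nhr-182, nhr-17, nhr-133, nhr-168, nhr-104, nhr-154, nhr-6, nhr-32, nhr-138, nhr-105, nhr-34, nhr-97, nhr-95, nhr-48, nhr-40 and nhr-46, from the largest fall to the smallest. Of all 24 lower members, 23 had no csr-1 RNAi library reaching an EV library, nhr-48 being the exception, and 19 fell by a log2 value of 1 or more. nhr-48, a relative of the worm steroid receptor gene daf-12, had 459, 284, 213 and 225 normalised reads under csr-1 RNAi, 564, 411, 350 and 380 under P granule RNAi, and 575, 501, 612 and 391 with EV. Its library csr-1 RNAi orig stood above EV library 3, and the log2 fold change was −0.86 ± 0.25 (adjusted p = 0.0382).

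nhr-40, a gene with a role in embryonic and larval development and in muscle, had 140, 142, 149 and 108 normalised reads under csr-1 RNAi, 229, 164, 177 and 151 under P granule RNAi, and 258, 208, 237 and 262 with EV. The csr-1 RNAi libraries were below all others, and the log2 fold change was −0.84 ± 0.19 (adjusted p = 0.0106). nhr-6, the counterpart of the NR4A receptors and needed for the spermatheca to form, had 32.7, 13.7, 22.6 and 15.1 normalised reads under csr-1 RNAi, 33.2, 54.5, 32 and 27.1 under P granule RNAi, and 47.1, 46, 47 and 36.6 with EV. The csr-1 RNAi and EV values did not overlap, and −1.11 ± 0.34 was the fall closest to the threshold (adjusted p = 0.0467). nhr-17 averaged 61.7 ± 27.3 normalised reads under csr-1 RNAi and 184 ± 52.8 with EV (SD, n = 4 each), a log2 fold change of −1.64 ± 0.36 (limma adjusted p = 0.00957). nhr-138 averaged 103 ± 12.9 under csr-1 RNAi and 218 ± 33.9 with EV, a log2 fold change of −1.07 ± 0.19 (adjusted p = 0.00399). Exons of nhr-6, nhr-17, nhr-34, nhr-40 and nhr-138 overlap another annotated gene, as those of nhr-4 do, so 6 of the called members share exon sequence with another gene, as 24 of all 93 members do, nhr-57, nhr-86 and nhr-91 among them.

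Among these 16 falls, calls of nhr-17, nhr-34, nhr-40, nhr-97, nhr-138 and nhr-154 held without each library in turn. Those of the others were lost without at least 1 library. nhr-168 lost its call without EV library 2 (adjusted p = 0.0573), and nhr-182 without EV library 2 or 3 (0.0747 and 0.0637). nhr-104 lost it without EV library orig, EV library 2 or csr-1 RNAi library 2 (0.0605 to 0.0803), and nhr-105 without EV library orig, 2 or 3 or csr-1 RNAi library 2 (0.0553 to 0.0805). nhr-32 lost it without any EV library and without csr-1 RNAi library 1 or 3 (0.051 to 0.081), and nhr-133 without any EV library and without csr-1 RNAi library orig, 1 or 2 (0.053 to 0.0876). nhr-95 depended on every EV library, csr-1 RNAi libraries 2 and 3 and P granule RNAi libraries 2 and 3 (0.0515 to 0.12). nhr-48 depended on EV libraries orig, 1 and 2, csr-1 RNAi libraries 1, 2 and 3 and P granule RNAi library 3 (0.0523 to 0.117). nhr-6 kept its call only without csr-1 RNAi library orig or P granule RNAi library 1, and without each other library in turn lay at 0.0526 to 0.131. edgeR on the recovered reads did not call nhr-6, nhr-48, nhr-95 and nhr-133.

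The 3 rises were in genes with few reads. nhr-158 (C17E7.6, chromosome V) had 31.3, 11.2, 15.1 and 11.9 normalised reads under csr-1 RNAi, 2.95, 7.61, 4.13 and 3.69 under P granule RNAi, and 0.812, 2.09, 5 and 1.98 with EV. nhr-112 (Y70C5C.6, chromosome V) had 39.3, 29.9, 22.6 and 15.1 under csr-1 RNAi, 5.16, 2.54, 9.3 and 4.93 under P granule RNAi, and 9.75, 3.14, 5 and 3.95 with EV. Both were under 10 normalised reads in every library outside csr-1 RNAi and above 10 in every csr-1 RNAi library, so they entered the tested set only through the group where they were high. Their log2 fold changes were 2.42 ± 0.51 for nhr-158 (adjusted p = 0.00838) and 2.12 ± 0.48 for nhr-112 (adjusted p = 0.0116). nhr-119 (K12H6.1, chromosome II) had 72.7, 42.3, 38.6 and 28 normalised reads under csr-1 RNAi, 16.2, 30.4, 20.7 and 16 under P granule RNAi, and 9.75, 15.7, 22 and 12.9 with EV. The csr-1 RNAi and EV libraries did not overlap, and the log2 fold change was 1.50 ± 0.38 (adjusted p = 0.0207). That call was lost without EV library orig or csr-1 RNAi library 1 (adjusted p = 0.0601 and 0.0527). In all 3 genes library orig was the highest of the csr-1 RNAi group.

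**Figure D3:**
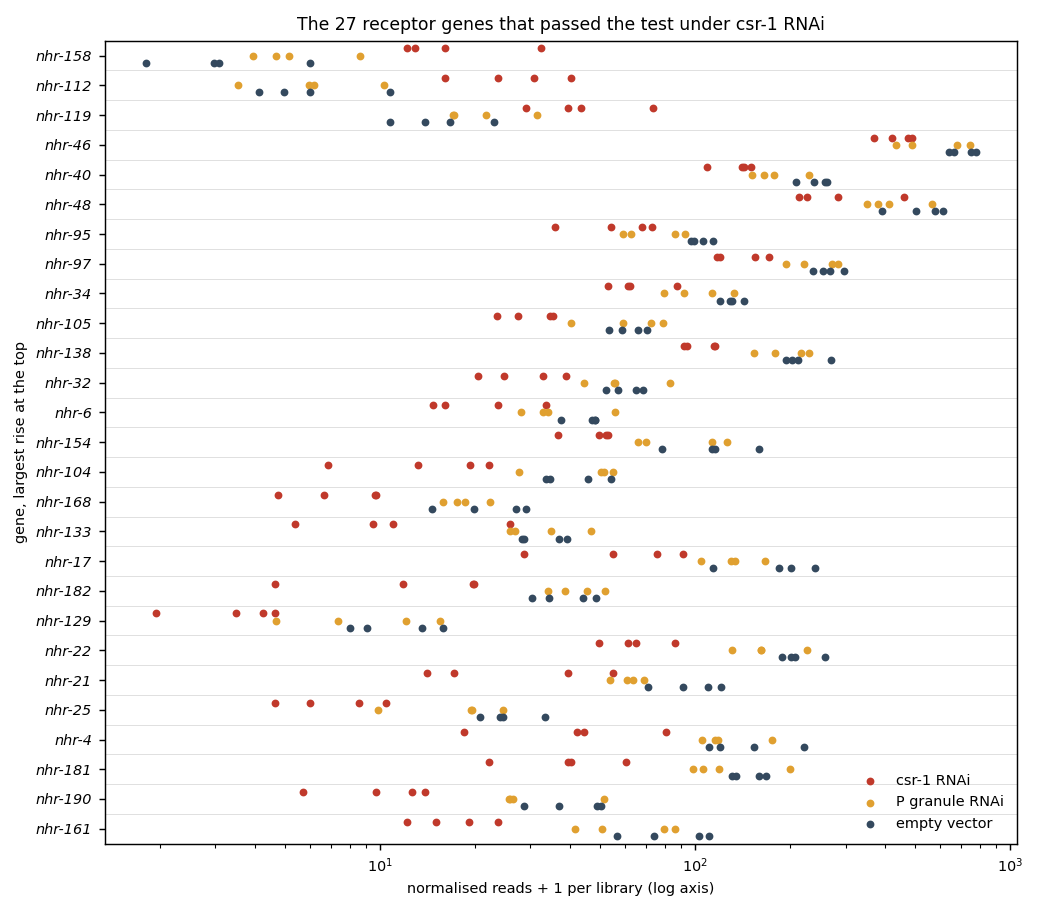
Normalised reads + 1 in each library (log axis) for the 27 receptor genes that passed the test in csr-1 RNAi against EV, from the largest rise at the top to the largest fall at the bottom; red is csr-1 RNAi, yellow P granule RNAi and dark blue EV, 4 points each. The csr-1 RNAi points lie left of the EV points without overlap in 23 of the 24 genes that fell, and right of them in the 3 that rose.

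The 4 csr-1 RNAi libraries differed among themselves. The csr-1 transcript had 6025, 3827, 3045 and 2445 normalised reads in libraries orig, 1, 2 and 3, and the mean log2 level of the sperm marker list was 4.74, 5.92, 7.49 and 8.19. That of the cuticle and hypodermis list was 4.14, 4.80, 5.78 and 6.18. The 24 lower members averaged 4.91, 5.08, 5.03 and 5.36 on the log2 scale in these libraries, 6.11 to 6.53 under P granule RNAi and 6.34 to 6.60 with EV. These genes were chosen for being lower under csr-1 RNAi than with EV, so the distance between those groups is part of the choice. Library orig, with the most csr-1 reads left, was the lowest of its group for 9 of the 24 genes and the highest for 7, and library 3, with the fewest, was the highest for 11. Without the 3 libraries named orig, 19 members were called lower and 2 higher, and the share over all tested genes in that fit is not given here.

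Marker lists of germline and body cells were read from the same fit, where 6.98% of all tested genes were called higher and 7.8% lower under csr-1 RNAi against EV. With 10 to 21 tested genes in a list, a count of 1 or 2 is near or little above those shares. Of the sperm list 2 of 21 tested genes rose (spe-6 and spe-15), and the list summed to 3769 to 23203 normalised reads under csr-1 RNAi, 3570 to 12037 under P granule RNAi and 2112 to 4565 with EV. Of the sheath and spermatheca list 2 of 14 fell (fos-1 and lfe-2), with sums of 12721 to 40675, 15480 to 18103 and 23107 to 34528 in that order of groups. Of the cuticle and hypodermis list 1 of 14 fell (dpy-10), with sums of 6692 to 12959, 6234 to 29654 and 7850 to 13850. Of the germline list 4 of 14 fell (gld-1, nos-3, daz-1 and cgh-1) and 1 rose, with sums of 130410 to 156963, 156038 to 208842 and 188282 to 234802. cgh-1 alone averaged 60711 under csr-1 RNAi and 108725 with EV. Of the oocyte list 2 of 10 fell, with sums of 232215 to 264174, 230107 to 342263 and 285199 to 358722. In both lists every csr-1 RNAi sum lay below every EV sum. Of the neuron list 1 of 11 rose, while no intestine or body muscle gene passed. No listed gene that matched the table was at 0 in every library. The part of these cell types in the receptor changes was not tested.

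The share called was set beside that of genes of similar level. By mean over the 12 libraries, 22.9% of the 35 members under 30 normalised reads were called, beside 9.67% of all tested genes of that level. Between 30 and 100 the shares were 31.2% of 32 members and 15% of all genes, between 100 and 300 they were 41.2% of 17 members and 22.1%, and at 300 or more 22.2% of 9 members and 15.5%. All 3 rises were in the lowest band, and no member above 30 was called higher. Of the called members in that band, nhr-112 and nhr-158 were tested only through csr-1 RNAi libraries. nhr-25, nhr-129 and nhr-168 were tested only through the other groups. The minimum thus took these genes in where they were high, which limits the comparison of shares in the lowest band. The median log2 fold change was −0.31, −0.52, −0.54 and 0.03 in the bands from low to high among members, and 0.30, 0.21, −0.18 and −0.04 among all tested genes. The 24 lower members had EV means from 10.6 to 707 normalised reads, with a median of 100 beside 45.6 for all members. Their median coding length was 1.33 kb beside 1.27 kb for all members.

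**Figure D4:**
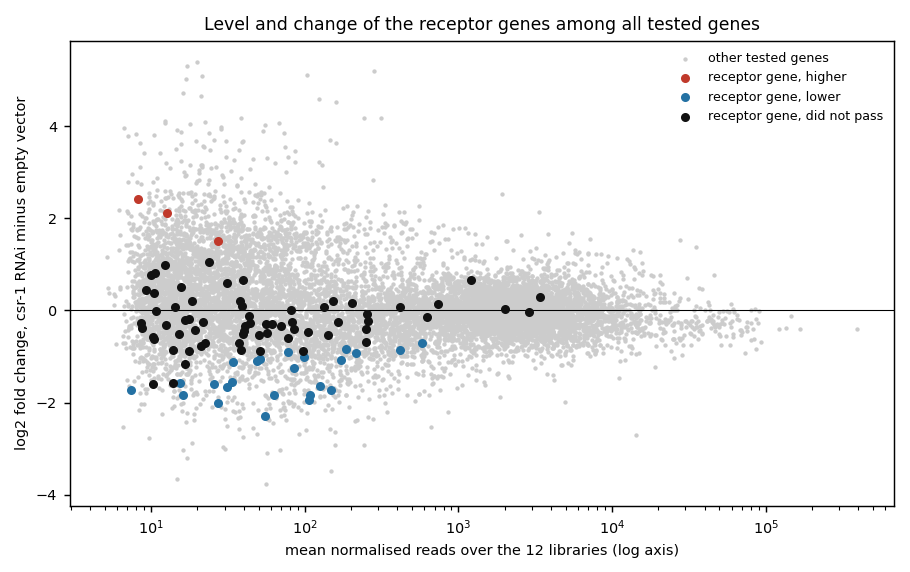
Log2 fold change in csr-1 RNAi against EV (vertical) by mean normalised reads over the 12 libraries (horizontal, log axis) for all tested genes (small grey points) and the 93 receptor genes (large points, red higher, blue lower, black did not pass). The blue points spread over levels from under 10 to over 300 normalised reads, while the 3 red points lie at low levels.

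The receptor genes are unevenly placed in the genome. On chromosome V lie 176 of the 282 genes, and 42 of those (23.9%) were tested, against 19 of 33 (57.6%) on chromosome IV and 14 of 24 (58.3%) on chromosome X. Chromosome V therefore held 62.4% of the family and 45.2% of the tested members. The falls came from 5 of the 6 chromosomes: 9 of 42 members on V, 7 of 19 on IV, 5 of 14 on X, 2 of 6 on II and 1 of 5 on III. None of the 7 members on chromosome I was called, among them nhr-49 and nhr-23. On X, 15.3% of all tested genes were called lower and their median log2 fold change was −0.32, beside 35.7% and −0.43 for its 14 members; on IV the same values were 5.71% and 0.11 for all genes, beside 36.8% and −0.51 for the 19 members. On V 7.31% of all genes and 21.4% of members were called lower.

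**Figure D5:**
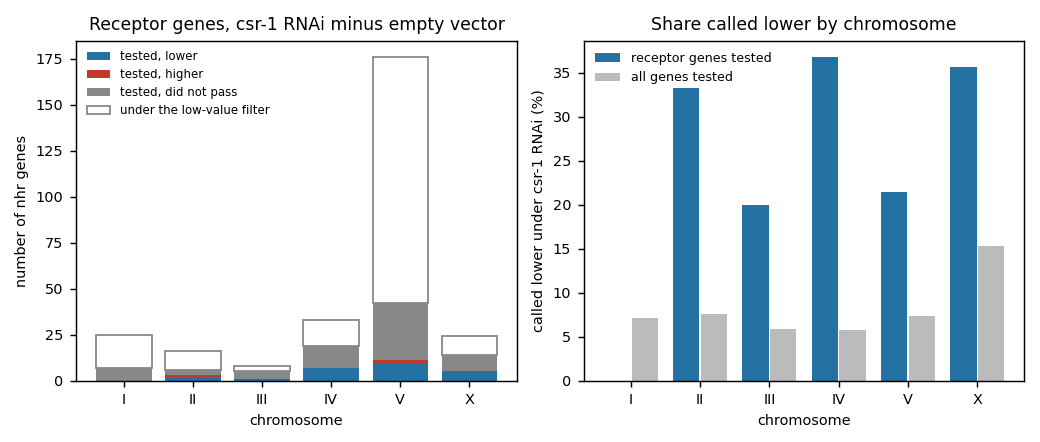
Left, number of nhr genes per chromosome in the table, split into tested genes called lower (blue), called higher (red), not passed (grey) in csr-1 RNAi against EV, and genes under the low-value filter (white). Right, percent of tested receptor genes (blue) and of all tested genes (grey) called lower on each chromosome; chromosome V holds most nhr genes, most of them under the filter, and chromosome I has no called member.

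Many nhr genes are neighbours. With at most 1 gene between them, 167 of the 282 genes formed 49 runs, and 38 of the tested members were in such runs. Of these 38, 8 fell (21.1%) and 1 rose, and of the 55 members outside runs 16 fell (29.1%) and 2 rose, beside 7.8% of all tested genes called lower and 6.98% higher. The difference between members in and outside runs was not tested. In 11 runs at least 2 genes could be tested, and only in that of nhr-129 and nhr-168 did more than 1 pass. Both of these genes were tested only through the EV and P granule RNAi libraries, where they were high. The call of nhr-129 was lost without any single EV library, and that of nhr-168 without EV library 2. nhr-168 averaged 6.68 ± 2.43 normalised reads under csr-1 RNAi and 21.6 ± 6.63 with EV, a log2 fold change of −1.57 ± 0.37 (limma adjusted p = 0.0153), next to −1.72 for nhr-129. In the run of nhr-133, nhr-56, nhr-134 and nhr-96, the log2 fold changes were −1.59, −1.16, −0.51 and −0.28 and that of nhr-133 alone passed. nhr-161, at −2.29, stood in a run with nhr-107 at 0.82 and nhr-42 at 0.10, neither called. nhr-158, which rose and was tested only through its csr-1 RNAi libraries, had 8 family neighbours in its run, all under the low-value filter. Neighbours that are close copies could share reads. The reads with no unique place, which were not assigned to genes, made up 2.30% to 2.76% under csr-1 RNAi, 2.18% to 2.38% under P granule RNAi and 2.04% to 2.21% with EV, and their spread over this family was not tested.

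Members with a described role numbered 31 in the list used, of which 29 were tested; nhr-60 and nhr-67 were not. Of the 29, 5 fell under csr-1 RNAi (nhr-6, nhr-25, nhr-40, nhr-46 and nhr-48), none rose and the median log2 fold change was −0.23, beside 7.8% of all tested genes called lower and a median of 0.02 over them. Counterparts of receptors found outside nematodes held 3 of these falls, nhr-6, nhr-25 and nhr-48, among 8 tested. The calls of nhr-6 and nhr-48 were lost in 15 and 11 of the 23 alternative settings. nhr-25 was tested only through the EV and P granule RNAi libraries, where it was high, so this count does not test that subclass. nhr-23, given above, and the others did not pass: nhr-8, a relative of daf-12, had −0.21, nhr-41, the counterpart of TR2 and TR4, had −0.19, nhr-85, the counterpart of E75 and Rev-erb, had −0.38, and nhr-91, the counterpart of GCNF, had 1.06. nhr-91 had 39.3, 29.9, 21.7 and 41 normalised reads under csr-1 RNAi, 19.2, 16.5, 18.6 and 33.2 under P granule RNAi, and 12.2, 10.5, 14 and 26.7 with EV. Only EV library 3 reached into the csr-1 RNAi range, and without it nhr-91 was called at 1.33 (adjusted p = 0.0398, against 0.0832 with all libraries).

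Among the metabolic regulators, nhr-80 and nhr-13, whose proteins are partners of NHR-49 in fat metabolism, had log2 fold changes of 0.77 ± 0.54 and −0.41 ± 0.25 under csr-1 RNAi (limma adjusted p = 0.377 and 0.304). nhr-10 and nhr-68, which together control the propionate breakdown shunt, had −0.08 ± 0.20 and −0.33 ± 0.51 (adjusted p = 0.835 and 0.712). nhr-114, which protects the germline on some bacterial diets, averaged 120 ± 5.41 normalised reads under csr-1 RNAi, 158 ± 86.5 under P granule RNAi and 120 ± 42.5 with EV, and had 0.08 ± 0.37 under csr-1 RNAi (adjusted p = 0.92). nhr-62, tied to dietary restriction, and nhr-14, tied to iron uptake, had −0.43 and 0.07. nhr-31, which acts in the excretory cell, had −0.51, and nhr-69 had 0.66 with all csr-1 RNAi libraries above all EV libraries but no call (adjusted p = 0.195). nhr-2, a gene of the early embryo, had −0.23 (adjusted p = 0.434). The rest of the described members (nhr-28, nhr-57, nhr-64, nhr-71, nhr-76 and nhr-88) lay between −0.77 and −0.11, none called.

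P granule RNAi was compared with EV to ask how the same transcripts stood once P granule components were depleted. No member was called, where 0.0617% of all tested genes (7 of 11345) were, 0.0353% lower and 0.0264% higher. The members' median log2 fold change was −0.06, beside 0.03 over all genes, and 3 members (3.23%) had an unadjusted limma p under 0.05, nhr-40, nhr-66 and nhr-132, beside 1560 of all 11345 tested genes (13.8%). All P granule RNAi libraries lay below all EV libraries in 3 members (nhr-21, nhr-66 and nhr-95; 3.23%, beside 7.06% of all genes) and above in 1 (nhr-132; 1.08%, beside 5.13%). edgeR called 0 members as well, and DESeq2 called 1.

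That gene was nhr-66, given above, whose log2 fold change was −0.57 ± 0.13 with a 95% interval of −0.86 to −0.28 (limma unadjusted p = 0.000976, adjusted p = 0.247; DESeq2 adjusted p = 0.0318). limma also called it without csr-1 RNAi library 3 (adjusted p = 0.0492). nhr-132 had 12.5, 26.6, 17.6 and 13.5 normalised reads under P granule RNAi, 4.36, 7.47, 7.53 and 9.71 under csr-1 RNAi, and 6.5, 9.42, 6 and 6.92 with EV. It reached the minimum of 10 only in P granule RNAi libraries, and its log2 fold change of 1.14 ± 0.38 did not pass (adjusted p = 0.316). The 8 genes with the largest falls under csr-1 RNAi had log2 fold changes from −0.65 (nhr-21) to −0.22 (nhr-4) under P granule RNAi, none called. The 95% intervals were −1.19 to 0.33 for nhr-161, −0.93 to 0.46 for nhr-181 and −0.85 to 0.16 for nhr-22, so falls as large as the lower bounds are not excluded. The comparisons of both RNAi groups with EV share the EV libraries.

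Set directly against P granule RNAi, csr-1 RNAi libraries were lower in 16 members and higher in 2, with 9.52% of all tested genes called (4.27% lower and 5.25% higher). The median log2 fold change was −0.40 among members and −0.04 among all genes. In 27 members (29%, beside 7.9% of all genes) every csr-1 RNAi library lay below every P granule RNAi library, and in 3 (3.23%, beside 7.4%) above. Of the 18 genes 14 were also called against EV, in the same direction; these were nhr-4, nhr-22, nhr-32, nhr-97, nhr-104, nhr-105, nhr-112, nhr-133, nhr-138, nhr-161, nhr-168, nhr-181, nhr-182 and nhr-190. This comparison shares the csr-1 RNAi libraries with the one against EV. The largest differences were −1.86 ± 0.35 for nhr-161 (limma adjusted p = 0.00633), −1.80 ± 0.44 for nhr-182 (adjusted p = 0.0245) and −1.71 ± 0.32 for nhr-181 (adjusted p = 0.00597) among the genes called in both, and nhr-112 was higher by 2.12 ± 0.48 (adjusted p = 0.016). nhr-112 was tested only through its csr-1 RNAi libraries, and nhr-168 only through the other groups, so both were taken in where they were high.

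Only this comparison called nhr-66, nhr-56, nhr-57 and nhr-237. nhr-66 was higher in every csr-1 RNAi library than in every P granule RNAi library, by 0.86 ± 0.13 on the log2 scale (adjusted p = 0.00236). nhr-57, a gene induced in worms by low oxygen, had 9.45, 7.47, 12.2 and 17.3 normalised reads under csr-1 RNAi and 35.4, 22.8, 37.2 and 28.3 under P granule RNAi, beside 26, 12.6, 20 and 22.7 with EV. The EV libraries overlapped both RNAi groups, which did not overlap each other, and the difference between RNAi groups was −1.38 ± 0.36 (adjusted p = 0.0307). nhr-56 had 5.09, 6.23, 10.4 and 7.55 normalised reads under csr-1 RNAi and 35.4, 33, 20.7 and 12.3 under P granule RNAi, beside 18.7, 13.6, 20 and 16.8 with EV, and the RNAi groups differed by −1.60 ± 0.39 (adjusted p = 0.0243). nhr-237 had 0.727, 2.49, 4.71 and 7.55 normalised reads under csr-1 RNAi and 16.2, 14, 10.3 and 17.2 under P granule RNAi, beside 12.2, 17.8, 6 and 12.9 with EV, and the RNAi groups differed by −1.87 ± 0.52 (adjusted p = 0.0428). No csr-1 RNAi library of nhr-237 reached 10 normalised reads, so it was tested only through the other groups.

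The number of calls differed with the libraries in the fit, and the shares called over all tested genes in the smaller fits are not given here. With only the 8 libraries of these groups in the fit 5 members were called, and without the 3 libraries named orig 4 were. Leaving out P granule RNAi library orig, 2 or 3 gave 9, 8 and 9 calls, and leaving out csr-1 RNAi library 1 or 2 gave 7 and 9. The calls of nhr-22, nhr-66, nhr-161 and nhr-181 held under every alternative run. Highest adjusted p-values under the alternatives were 0.0891 for nhr-112, 0.111 for nhr-138, 0.089 for nhr-182, 0.0903 for nhr-190, 0.0866 for nhr-4, 0.0924 for nhr-97 and 0.127 for nhr-104. For nhr-105, nhr-133, nhr-168, nhr-237, nhr-32, nhr-56 and nhr-57 they reached 0.139 to 0.221.

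Genes that work with the receptors were read from the same fit, in which 14.8% of all tested genes were called under csr-1 RNAi against EV and 7.8% were lower. A single call in a list of 5 to 8 genes is near that share. Of 8 coregulator genes 1 fell under csr-1 RNAi: mdt-15, the Mediator subunit through which NHR-49 acts, averaged 2052 ± 507 normalised reads under csr-1 RNAi and 3253 ± 431 with EV (SD, n = 4 each), a log2 fold change of −0.69 ± 0.18 (limma adjusted p = 0.0224). The median log2 fold change of the 8 coregulator genes was −0.72 under csr-1 RNAi, beside 0.02 over all tested genes. Under P granule RNAi it was −0.52, beside 0.03. None of 9 tested fat metabolism genes downstream of NHR-49 and NHR-80 passed, among them fat-6 at −0.02 and fat-7 at 0.08. None of 5 genes around the hormone dafachronic acid, the ligand of DAF-12, passed, and neither did daf-12 or sex-1, the only tested receptor genes without an nhr name in the list. Of the 5 propionate shunt genes alh-8 fell, by −0.56 ± 0.15 (adjusted p = 0.0298), and acdh-1, the usual reporter of that pathway, had −0.46 ± 0.55.

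Molting genes, which nhr-23 and nhr-25 regulate in larvae, held 3 falls among 7 tested and a median log2 fold change of −1.73, beside 7.8% of all tested genes called lower and a median of 0.02 over them. noah-1, whose product belongs to the matrix that covers the epidermis, averaged 9.5 ± 3.14 normalised reads under csr-1 RNAi and 90.5 ± 37.8 with EV, a log2 fold change of −3.10 ± 0.66 (limma adjusted p = 0.00852). Its relative noah-2 averaged 18.3 ± 4.16 under csr-1 RNAi and 102 ± 37.6 with EV, with −2.38 ± 0.39 (adjusted p = 0.00247), and mlt-10 fell by 1.73 on the log2 scale (adjusted p = 0.0113). No gene of these 6 lists passed in P granule RNAi against EV. Whether the molting genes moved because of any receptor was not tested.

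The authors' deposited table, made with DESeq, held all 93 members for csr-1 RNAi against EV. At an adjusted p under 0.05 the authors' deposited table had 9 of them, 7 lower (nhr-4, nhr-17, nhr-21, nhr-22, nhr-161, nhr-181 and nhr-190) and 2 higher (nhr-112 and nhr-158), beside 5.16% of its 19023 genes with a p-value. Over all genes the split in the authors' deposited table ran the other way, with 805 higher and 177 lower. Those genes include many under the low-value filter, which all 93 members had passed, so the 2 sets differ. Among the 11345 genes past the filter, limma called 792 higher and 885 lower. nhr-25, nhr-34, nhr-40, nhr-97, nhr-138 and nhr-154, whose limma calls held under every alternative setting, did not pass in the authors' deposited table. Their DESeq adjusted p ran from 0.069 for nhr-25 to 0.639 for nhr-40. For nhr-161 the authors' deposited table gave a ratio of means of 0.194 with an adjusted p of 0.00322, and for nhr-158 a ratio of 7.02 with 0.0109. Both higher genes, nhr-112 and nhr-158, count as members only through their csr-1 RNAi libraries. For P granule RNAi the authors' deposited table had none of the 93 members under 0.05, beside 0.558% of its genes with a p-value, again without the filter.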

How the data were processed

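GEO lists 3 samples, 1 for each group, and the series design states 4 biological replicates of each; the 12 columns of the deposited table carry the group and a replicate name. Tools listed in the submitters' processing notes are DESeq 1.1.2.1, HTSeq 0.5.4p3, SAMtools 0.1.18, TopHat2 2.0.8b and CASAVA. Not given in the sources used here are the genome build, the annotation and the meaning of orig. Per gene, the deposited values are a normalised signal, reads over a size factor: all 187378 values above 0 were whole multiples of what 1 read is worth (100%, tolerance 0.01 reads). The authors' DESeq tables hold a fold change as a ratio of means and p-values, per the file headers.

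Names, chromosomes and coding lengths came from WBcel235 for 45373 of 45836 gene entries (98.99%); 5 entries naming no gene were left out. limma 3.58.1 in R 4.3.3 (trend, robust) was fitted to log2(value + 1) of all 12 libraries by group, after a low-value filter (10 or more in 4 or more libraries, 11345 genes), with Benjamini-Hochberg adjustment over these genes and a threshold of 0.05. This scale understates changes of low genes. Alternatives were edgeR 4.0.16 and DESeq2 1.42.0 on the recovered reads, other pseudocounts, filters and scaling, and libraries left out. Pairs of libraries in a group differed beyond counting noise (chi-square over degrees of freedom at least 15.5). The procedure was also run on simulated data with the same spread in every group and no changes in low genes. That run therefore does not bear on the lowest members. Named were all called members (the 8 largest rises and falls in full), the 6 highest per coding length, described members and neighbours. The members and lists were chosen with earlier results of these data known.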

Additional observations from a re-analysis of the deposited data

Results flagged for a closer look

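In the 17 members printed in full, 51 groups of 4 libraries were examined for a library far from the others, by a gap to its nearest neighbour that, relative to the group's range, passed Dixon's critical value at 95%; chance gives about 1 such library in 20 groups. There were 3. nhr-190 had 50.2 normalised reads in P granule RNAi library orig, beside 24.6 to 25.4 in the other 3. nhr-86 had 1902 in P granule RNAi library 1, beside 792 to 837. nhr-23 had 1658 in EV library 3, beside 2177 to 2288.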

How the results depend on the processing

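For csr-1 RNAi against EV the 27 calls became 21 to 29 under the settings that left out no single library, and 16 to 29 with single libraries left out (17 without EV library orig, 16 without EV library 2). For P granule RNAi against EV there was 0 in most settings, 1 with DESeq2 and 0 to 1 with single libraries left out. For csr-1 RNAi against P granule RNAi the 18 calls became 5 with only the 8 libraries compared and 4 without the 3 libraries named orig. They became 7 to 20 with single libraries left out, and the other settings gave 14 to 20. Shares called over all tested genes under these settings are not given here.

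Over the members followed by name, 1644 values were recomputed: 1415 kept direction and side of the threshold, 211 lost a call, 11 gained one and 7 changed sign, none of them a called value. Without the orig libraries nhr-23 became −0.18 and nhr-274 −0.04 under csr-1 RNAi. With single libraries left out, nhr-23 ranged from −0.21 to 0.20 (−0.08 without EV library 3), nhr-114 from −0.17 to 0.25 and nhr-49 from −0.13 to 0.04 under csr-1 RNAi, and nhr-86 from −0.25 to 0.17 under P granule RNAi. The cause was not tested. On the recovered reads edgeR (TMM scaling) called 23, 0 and 15 members in the 3 comparisons; with either scaling it lost nhr-6, nhr-48, nhr-95 and nhr-133 for csr-1 RNAi against EV.

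The replicate names paired the libraries only in part: libraries of the same name in different groups had deviations correlated from −0.467 to 0.663. Among csr-1 RNAi libraries, P granule RNAi libraries orig, 1 and 2 correlated best with their namesakes (0.192, 0.45 and 0.663). EV library 2 had −0.401 and −0.467 with its namesakes. In every group orig was the deepest library (29.8 to 31.9 M reads in genes) and had the lowest mean log2 level of the sheath and spermatheca list (6.40 to 6.74). By summed normalised reads of that list orig was not the lowest in any group, and under csr-1 RNAi it was the highest (40675). Whether the orig libraries shared a step is not given and was not tested. With the replicate name as a block 27, 0 and 16 members were called in the 3 comparisons. Most members had under 100 normalised reads with EV, and 4 libraries per group limit the precision of all values.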
